A study of Mus musculus with 13 samples.

Results

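The 9 genes described here encode the mouse amyloid precursor protein (App), the secretases that cut it (Psen2 and Ncstn of γ-secretase, the β-secretase Bace1 and its relative Bace2, and the α-secretases Adam10 and Adam17) and the amyloid-degrading proteases neprilysin (Mme) and insulin-degrading enzyme (Ide). They were chosen by name, all 9 were found among the 52636 genes measured in each mouse, and 7 of them passed the filter on low counts. RNA-Seq was performed on resident myeloid cells (CD11b+CD45+Ccr2-Ly6g-), FACS-sorted from the cortex and hippocampus of mice aged 14 to 15 months. The study compared PS2APP;Trem2wt (n = 7, of which 5 female) and PS2APP;Trem2ko mice (n = 6, of which 5 female), with 1 library per mouse, to learn how microglia respond to β-amyloid pathology without Trem2, a myeloid lipid and lipoprotein receptor. Every mouse carried the PS2APP transgenes, which encode human APP and presenilin 2 with familial Alzheimer's disease mutations, on stock bred to be homozygous for them. The PS2APP;Trem2ko mice also carried the Trem2tm1(KOMP)Vlcg null allele, made on C57BL/6N and crossed into PS2APP mice on C57BL/6J, so alleles of the C57BL/6N strain linked to Trem2 cannot be told apart from the loss of Trem2. No nontransgenic mice were in the series, and so the comparison is of Trem2 genotypes within the amyloid model.

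APP is a membrane protein that is cut along alternative routes. ADAM10 and ADAM17, the α-secretases, cut within the amyloid-β sequence and release a soluble ectodomain. BACE1, the β-secretase, cuts at the start of the amyloid-β sequence, and γ-secretase, a membrane complex of presenilin, nicastrin, APH1 and PEN2, then releases the peptide. Neurons are the main source of the peptide in brain. Microglia take it up and degrade it, and they also use ADAM10, ADAM17 and γ-secretase to shed and clear receptors of their own surface, TREM2 among them. Neprilysin and insulin-degrading enzyme are proteases that cleave the free peptide.

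The stretches of coding sequence below show what sets these proteins apart as substrate and enzymes; all were read from GENCODE M21 transcripts on GRCm38. In App the amyloid-β sequence, preceded by a pair of codons, lies at codons 670 to 713 of a reading frame of 770 codons, on the minus strand at chr16:84962794-84965726, in 2 exons. Capitals mark the codons on either side of the β-secretase cut, at the site of the APP mutation that the human transgene carries.
App: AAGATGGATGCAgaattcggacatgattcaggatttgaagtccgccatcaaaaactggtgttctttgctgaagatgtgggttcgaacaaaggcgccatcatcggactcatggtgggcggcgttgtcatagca
Of the 83 windows of 50 bases (the length of a read) in this stretch, 0 occurred in transcripts of another mouse gene. All 52636 identifiers were mouse genes, with no entry for the human transgenes. The human coding sequences were not used here, and how many reads of human APP or presenilin 2 could have been counted as App or Psen2 was not tested.

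The α-secretases and neprilysin hold a zinc in their active site, and capitals mark the zinc-binding motif, found by translating the reading frame. It begins at codon 384 of Adam10 (plus strand, chr9:70754290-70761591, across 2 exons), at codon 424 of Adam17 (minus strand, chr12:21336726-21336770) and at codon 584 of Mme (plus strand, chr3:63362015-63362041).
Adam10: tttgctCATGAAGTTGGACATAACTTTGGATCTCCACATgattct
Adam17: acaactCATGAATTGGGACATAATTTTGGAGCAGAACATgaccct
Mme: attggaCATGAAATCACACATggattt
The β-secretases are aspartic proteases, which use a pair of aspartates, and capitals mark the motif around each. These motifs begin at codons 93 and 289 of Bace1 (plus strand, chr9:45852897-45852920 and chr9:45858418-45858441) and at codons 106 and 299 of Bace2 (plus strand, chr16:97399643-97399666 and chr16:97415097-97415120).
Bace1, codon 93: ctggtgGACACGGGCAGTagtaac
Bace1, codon 289: attgtgGACAGTGGGACCaccaac
Bace2, codon 106: cttgtgGACACTGGAAGCagtaac
Bace2, codon 299: attgtgGACAGTGGCACCacgctc
Of these enzymes, Adam10, Adam17 and Bace1 were detected in every mouse, whereas Bace2 and Mme were at or near the limit of detection.

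Total counts per mouse ranged from 26120961 to 120569609. Trem2, measured first as a check of the labels, was at 818 to 1244 nRPKM in PS2APP;Trem2wt mice and at 0.393 to 2.29 in PS2APP;Trem2ko mice, where nRPKM is an RPKM, a read density per transcript length and library depth, adjusted by a size factor. The sorted cells carried the markers of microglia: the summed level of 10 microglial markers was 13353 to 16317 nRPKM in PS2APP;Trem2wt mice and 13627 to 15563 in PS2APP;Trem2ko mice. Of these, Cx3cr1, the fractalkine receptor, was the 1 marker called different, and fell by 0.49 on the log2 scale (edgeR adjusted p = 0.0067). Sums of the other marker lists were far lower. They were 6.49 to 18.6 nRPKM for 12 neuronal, 64.0 to 90.2 for 8 astrocyte and 51.5 to 74.2 for 8 oligodendrocyte markers. For 7 endothelial, 6 border macrophage and 4 monocyte markers they were 8.41 to 23.9, 9.23 to 41.2 and 2.39 to 21.5 nRPKM. For 6 neutrophil and 6 lymphocyte markers they were 0.143 to 246 and 0.289 to 5.55 nRPKM. Of these lists, 7 of 8 oligodendrocyte, 4 of 6 neutrophil and 3 of 6 lymphocyte markers were tested, and all markers of the other lists. The tested markers gave 0 calls by genotype, and 0 of the listed genes were absent from all mice. In bulk samples, fewer cells of a type and less RNA per cell cannot be told apart.

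None of the 7 detected genes was called different between the genotypes. The quasi-likelihood test of edgeR was run on 17086 genes, with a cutoff of 0.05 on the adjusted p; 0 of the 7 were called, 0 had an unadjusted p of 0.05 or less, and 0 were called by voom+limma or DESeq2. Of all genes tested, 2.04% were called, so with 7 genes a count of 0 is near the background. The intervals of the fold change, PS2APP;Trem2ko over PS2APP;Trem2wt, bound the differences: for all 7 genes the 95% interval lay within 1.5-fold, with the lowest bound at 0.799 (Adam17) and the highest at 1.36 (Bace1). The nRPKM of the genotypes overlapped for all 7 genes, while 1.62% of genes tested had no overlap.

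**Figure D1:**
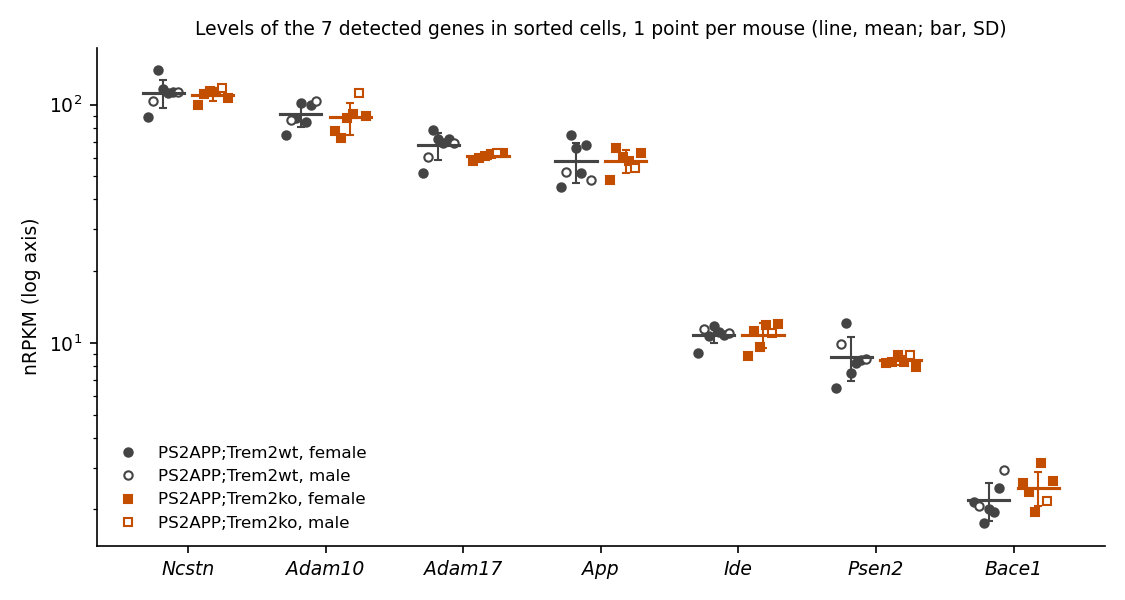
nRPKM (log axis) of the 7 detected genes in each of 7 PS2APP;Trem2wt mice (grey circles) and 6 PS2APP;Trem2ko mice (orange squares), with open symbols for males, a line at the mean and a bar for the SD. The genotypes overlap for every gene plotted, and Ncstn, Adam10, Adam17 and App lie well above Ide, Psen2 and Bace1.

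App (ENSMUSG00000022892; GRCm38 chromosome 16, 84949685 to 85173766, minus strand), the precursor itself, was well expressed in the sorted cells, above 96.6% of the genes tested. Its lowest, median and highest nRPKM were 45.3, 52.1 and 74.4 in PS2APP;Trem2wt mice and 48.0, 59.1 and 65.5 in PS2APP;Trem2ko mice. All PS2APP;Trem2ko mice lay within the PS2APP;Trem2wt range. The means were 57.9 ± 11.1 (SD, n = 7) and 58.1 ± 6.24 (SD, n = 6), with a log2 fold change of 0.0037 ± 0.117 (SE; 95% interval, -0.25 to 0.25; edgeR adjusted p = 0.992). The neuronal marker sum, which bears on App because neurons express it highly, was 6.49 nRPKM in the PS2APP;Trem2ko mouse where it was lowest and 18.6 in the one where it was highest, and App was 48.0 and 62.4 nRPKM in these mice. In the PS2APP;Trem2wt mice with the lowest and highest sums, 6.70 and 16.7 nRPKM, App was 65.6 and 67.5 nRPKM. The part of neuronal RNA in the App level was not tested.

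Of γ-secretase, Ncstn (ENSMUSG00000003458; chromosome 1, 172066013 to 172082795, minus strand), which encodes nicastrin, the substrate-binding subunit, had the highest mean nRPKM of the 9 genes. Its lowest, median and highest nRPKM were 88.5, 113 and 139 in PS2APP;Trem2wt mice and 100, 112 and 118 in PS2APP;Trem2ko mice, so that the PS2APP;Trem2ko mice lay inside the range of the others. The log2 fold change was -0.028 ± 0.087 (SE; 95% interval, -0.21 to 0.16; edgeR adjusted p = 0.924). Psen2 (ENSMUSG00000010609; chromosome 1, 180227004 to 180263438, minus strand), a catalytic subunit, was far lower, at 6.47, 8.44 and 12.1 nRPKM (lowest, median and highest) in PS2APP;Trem2wt mice and at 7.95, 8.31 and 8.92 in PS2APP;Trem2ko mice. The PS2APP;Trem2ko mice again lay inside the wider PS2APP;Trem2wt range, with a log2 fold change of -0.05 ± 0.12 (SE; 95% interval, -0.30 to 0.19; edgeR adjusted p = 0.888).

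The β-secretase Bace1 (ENSMUSG00000032086; chromosome 9, 45838580 to 45864399, plus strand) was near the middle of the genes tested, above 48.4% of them. It was at 1.75, 2.07 and 2.93 nRPKM (lowest, median and highest) in PS2APP;Trem2wt mice and at 1.95, 2.48 and 3.13 in PS2APP;Trem2ko mice, ranges that overlapped broadly. The log2 fold change of 0.17 ± 0.13 (SE; 95% interval, -0.10 to 0.45; edgeR adjusted p = 0.585) did not pass. The Bace1 value is the least certain of the 7: Rnf214 and Gm49338, on the opposite strand, overlap 15.4% and 15.0% of its exonic bases, 28.5% of its 50-base windows also occur in transcripts of other genes, and the library kit does not mark strand. Rnf214 was measured at 4.72 ± 0.765 and 4.73 ± 0.400 nRPKM (SD; n = 7 and 6; log2 fold change 0.0037 ± 0.10, SE) and Gm49338 at 3.20 ± 1.07 and 4.28 ± 0.723 nRPKM (SD; 0.42 ± 0.19, SE; edgeR adjusted p = 0.330). The part of these genes' reads in the Bace1 level was not tested. For the other tested members the share of such windows was between 0% and 5.17%, the highest being Ncstn, which overlaps Copa.

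Bace2 (ENSMUSG00000040605; chromosome 16, 97356742 to 97442936, plus strand) was at or near the limit of detection. Its counts were 0, 0, 18, 0, 0, 6 and 7 in PS2APP;Trem2wt mice and 2, 0, 12, 1, 0 and 0 in PS2APP;Trem2ko mice, in order of replicate number. A limit of 3 counts, which corresponds to between 0.0249 and 0.115 CPM (counts scaled to library depth) depending on the mouse and covers counting error only, was passed in 4 of 13 mice, and no fold change is given.

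Adam10 (ENSMUSG00000054693; chromosome 9, 70678997 to 70780229, plus strand) and Adam17 (ENSMUSG00000052593; chromosome 12, 21323509 to 21373632, minus strand), the α-secretases, ranked above 98.0% and 97.0% of the genes tested. Adam10 was at 74.7, 88.0 and 103 nRPKM (lowest, median and highest) in PS2APP;Trem2wt mice and at 72.3, 88.8 and 111 in PS2APP;Trem2ko mice. The ranges were nearly the same, with a log2 fold change of -0.04 ± 0.10 (SE; 95% interval, -0.26 to 0.17; edgeR adjusted p = 0.891). Adam17, the TNF-converting enzyme, was at 51.7, 69.4 and 78.1 nRPKM in PS2APP;Trem2wt mice and at 58.2, 61.5 and 63.0 in PS2APP;Trem2ko mice. The PS2APP;Trem2ko mice clustered in the lower part of the other range, and the log2 fold change of -0.14 ± 0.08 (SE; 95% interval, -0.32 to 0.03; edgeR adjusted p = 0.450) did not pass. Within a mouse, Adam10 was 1.36 ± 0.133 (SD, n = 7) and 1.45 ± 0.186 times (SD, n = 6) the level of Adam17, and the sum of the α-secretases was 74.0 ± 13.5 (SD, n = 7) and 62.0 ± 13.1 times (SD, n = 6) that of Bace1. These ratios overlapped between the genotypes. They are ratios of nRPKM, and their size depends on the transcript lengths behind it, which were not checked.

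Of the degrading enzymes, Ide (ENSMUSG00000056999; chromosome 19, 37268743 to 37337852, minus strand), a cytosolic and secreted metalloprotease, was at 9.05, 11.01 and 11.75 nRPKM (lowest, median and highest) in PS2APP;Trem2wt mice and at 8.83, 11.12 and 12.04 in PS2APP;Trem2ko mice. The means were 10.8 ± 0.868 (SD, n = 7) and 10.8 ± 1.29 (SD, n = 6), with a log2 fold change of -0.0089 ± 0.085 (SE; 95% interval, -0.19 to 0.17; edgeR adjusted p = 0.975). Over the 13 mice together, its SD was 9.57% of the mean, the lowest of the 7 detected genes, with Ncstn next at 10.4%. In PS2APP;Trem2ko mice alone it was not the tightest, as Adam17 was at 61.1 ± 1.91 nRPKM (SD, n = 6). Mme (ENSMUSG00000027820; chromosome 3, 63241537 to 63386030, plus strand), which encodes neprilysin, was all but undetected. Counts were 0, 0, 6, 0, 0, 1 and 1 in PS2APP;Trem2wt mice and 15, 6, 2, 3, 3 and 2 in PS2APP;Trem2ko mice, and more than 3 were found in 3 of 13 mice. These counts are not scaled to depth: the median total count was 35201380 in PS2APP;Trem2wt and 55371726 in PS2APP;Trem2ko mice. The mouse with 15 counts had the deepest library, at 120569609. The part of depth in the Mme counts was not tested, and at such counts no fold change is given.

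By mean nRPKM, which is per transcript length, the order of levels was Ncstn, Adam10, Adam17, App, Ide, Psen2, Bace1, Bace2 and Mme in both genotypes. The steps from App to Ide, from Psen2 to Bace1 and from Bace1 to Bace2 were larger than the spread over mice, with no overlap of the neighbours in either genotype. In PS2APP;Trem2ko mice Adam10 and Adam17 did not overlap either. The ranges of the other neighbours overlapped. Within single mice the nRPKM order of Ncstn over Adam10 still held in 7 of 7 and 6 of 6 mice, of Adam17 over App in 7 of 7 and 5 of 6, and of Ide over Psen2 in 6 of 7 and 6 of 6. Ncstn over Adam10 depends on the transcript lengths behind the deposited nRPKM, which were not checked. By count, which is not per length, Adam10 was above Ncstn in every mouse (15277 to 85175 against 11547 to 56729). Bace2, however, was above Mme in only 3 of 7 and 1 of 6 mice. The other PS2APP;Trem2wt mice had 0 counts of both genes, a tie, whereas in the other PS2APP;Trem2ko mice Mme was above Bace2. Both were at or near the limit of detection, and the order of their means is not firm.

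Most of the extreme levels came from a pair of PS2APP;Trem2wt females. PS2APP;Trem2wt replicate 3 had the highest level of 4 of the 7 detected genes (App, Psen2, Ncstn and Adam17), and the lowest of Bace1. PS2APP;Trem2wt replicate 1 had the lowest level of the same 4 genes. Without replicate 3, 0 of the 7 genes were called, as in every fit that left out 1 mouse.

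Sex, the other label that differed among the mice, was tested with genotype as a covariate in 10 females and 3 males. None of the 7 genes was called, 0 had an unadjusted p of 0.05 or less, and 0.0234% of all genes tested were called. App was 59.9 ± 9.21 nRPKM in females (SD, n = 10) and 51.5 ± 2.89 in males (SD, n = 3), with a log2 difference, female minus male, of 0.21 ± 0.14 (SE; 95% interval, -0.08 to 0.50; edgeR adjusted p = 0.805). Adam10 was 86.7 ± 9.74 in females and 100 ± 12.8 nRPKM in males (SD), a log2 difference of -0.22 ± 0.11 (SE; 95% interval, -0.45 to 0.02; edgeR adjusted p = 0.751). With 3 males the intervals are wider than those for genotype.

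Across the 13 libraries, the gene whose log2 CPM tracked each member most closely was Atp2b1 for App (Pearson r = 0.84), Mical1 for Psen2 (0.92), Ostm1 for Ncstn (0.96), Adap2os for Bace1 (0.90), Pik3cg for Adam10 (0.97), Pde3b for Adam17 (0.94) and Gm14822 for Ide (0.93). Each r was picked as the highest over all genes tested, rests on 13 mice and shares their libraries and scaling, and is given as a description. Ncstn had 14 genes at r of 0.9 or more, Adam17 had 9, Adam10 had 8, and App and Bace1 had 0.

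Other genes that act on APP, the secretases or their substrates were then counted from hand-written lists. Of 77 tested genes besides Trem2, 8 were called: 7 fell (1.53% of all genes tested fell) and 1 rose (0.503% rose), and 2 of them also passed the study's 2-fold cutoff (0.743% of all). The lists were written with earlier results of these data known, so nothing is drawn from these shares. Without PS2APP;Trem2wt replicate 3 the count was 6. It was 5 without PS2APP;Trem2ko replicate 1 and 4 without any of PS2APP;Trem2wt replicate 2, PS2APP;Trem2ko replicate 4 or PS2APP;Trem2ko replicate 6. The median log2 fold change was -0.03 over the 7 members and 0.0039 over all genes tested.

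**Figure D2:**
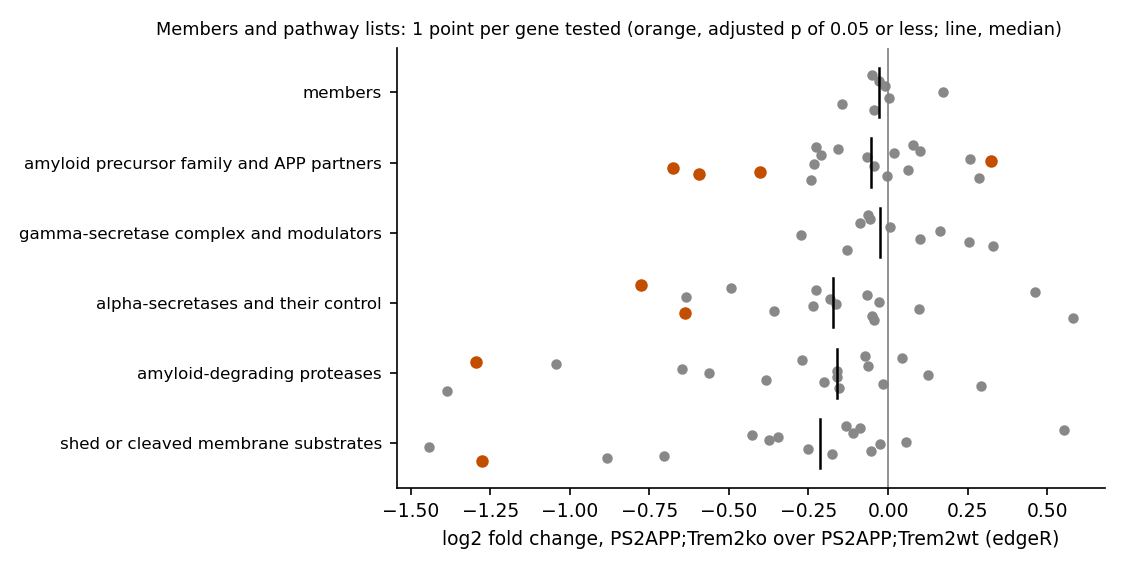
log2 fold change, PS2APP;Trem2ko over PS2APP;Trem2wt, of the 7 tested members and of the tested genes of each pathway list without Trem2; each point is a gene, orange points were called and black lines are medians. The members sit between -0.14 and 0.17 with none called, and the 8 called genes lie in the lists other than γ-secretase, 7 to the left of 0 and 1, Gga3, to the right.

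Of 18 relatives and partners of APP that could be matched to a gene, all were tested, 3 fell and 1 rose, with a median log2 fold change of -0.05. The 3 that fell were Aplp2, an APP homologue, and Apbb1 and Apbb2, which encode adaptors of the Fe65 family that bind the APP tail. Aplp2 was at 76.2, 99.4 and 178 nRPKM (lowest, median and highest) in PS2APP;Trem2wt mice and at 59.9, 71.5 and 73.0 in PS2APP;Trem2ko mice. The ranges did not overlap, although PS2APP;Trem2wt replicate 3 stood well above the rest, and the log2 fold change was -0.68 ± 0.15 (SE; edgeR adjusted p = 0.030). The ratio of App to Aplp2 within a mouse was 0.550 ± 0.119 (SD, n = 7; 0.418 to 0.724) and 0.857 ± 0.135 (SD, n = 6; 0.663 to 1.04); the ratio was chosen after the values were seen and was not tested.

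Apbb1 was at 3.88, 4.15 and 5.71 nRPKM in PS2APP;Trem2wt mice and at 2.46, 3.04 and 3.65 in PS2APP;Trem2ko mice, with no overlap and a log2 fold change of -0.59 ± 0.12 (SE; edgeR adjusted p = 0.015). Apbb2 was at 11.4, 13.2 and 16.5 nRPKM in PS2APP;Trem2wt mice and at 9.34, 9.82 and 11.7 in PS2APP;Trem2ko mice, which overlapped slightly, with a log2 fold change of -0.40 ± 0.09 (SE; edgeR adjusted p = 0.031). The gene that rose was Gga3, whose product sorts BACE1 towards lysosomes, from 10.2, 13.1 and 14.7 nRPKM to 15.4, 16.4 and 17.0, with no overlap and a log2 fold change of 0.32 ± 0.08 (SE; edgeR adjusted p = 0.041). The most abundant genes of the list were not called: Itm2b, at 2623 ± 278 and 2510.4 ± 208 nRPKM (SD), and Itm2c, at 320 ± 22.0 and 276 ± 22.3 nRPKM (SD), encode BRI proteins that bind APP, and Bin1, at 172 ± 22.7 and 167 ± 8.95 nRPKM (SD), encodes an endocytic adaptor.

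Leaving out single mice ended several of these calls. Aplp2 was called in 8 of 13 such fits and lost without PS2APP;Trem2wt replicate 2 or PS2APP;Trem2ko replicate 1, 3, 4 or 6. Apbb2 was called in 7 of 13 and lost without PS2APP;Trem2wt replicate 1 or 2 or PS2APP;Trem2ko replicate 2, 3, 4 or 6. Gga3 was called in 4 of 13 and lost without PS2APP;Trem2wt replicate 2, 3, 4 or 6 or PS2APP;Trem2ko replicate 1, 2, 4, 5 or 6. The calls of Aplp2, Apbb2 and Gga3 were also lost with females only, at log2 fold changes of -0.68, -0.45 and 0.35 (edgeR adjusted p = 0.108, 0.0622 and 0.0868), and those of Apbb2 and Gga3 with no filter (edgeR adjusted p = 0.0505 and 0.0574). Over all alternatives the adjusted p ranged from 0.00050 to 0.108 for Aplp2, from 0.0015 to 0.0699 for Apbb2 and from 0.0018 to 0.0878 for Gga3. Their direction was kept in every fit, and Apbb1 was called in 13 of 13.

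No gene of the γ-secretase complex and its modulators was called (0 of 10), with a median log2 fold change of -0.03. Its abundant genes included Hif1a, a hypoxia factor reported to act on γ-secretase, at 84.1 ± 21.6 and 69.7 ± 13.9 nRPKM (SD), and Ifitm3, an interferon-induced membrane protein, at 42.1 ± 19.5 and 47.2 ± 28.9 nRPKM (SD). The small subunits had low counts or shared windows: 39.5% of the 50-base windows of Aph1a, 18.4% of Aph1c and 23.4% of Psenen occur in transcripts of other genes, so their levels, at means of at most 6.47 nRPKM, are uncertain.

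Of 18 genes for α-secretases and their control, 16 were tested, and 2 fell while none rose, with a median log2 fold change of -0.17. Both encode proteins that handle the enzymes rather than cut a substrate. Tspan5, a tetraspanin that escorts ADAM10 to the cell surface, was at 3.07, 3.32 and 3.98 nRPKM (lowest, median and highest) in PS2APP;Trem2wt mice and at 1.80, 2.02 and 2.30 in PS2APP;Trem2ko mice. The ranges were well apart, with a log2 fold change of -0.77 ± 0.09 (SE; edgeR adjusted p = 0.00014). Frmd8, which stabilises the iRhom and ADAM17 sheddase complex, was at 12.6, 16.1 and 20.1 nRPKM in PS2APP;Trem2wt mice and at 8.76, 10.3 and 12.5 in PS2APP;Trem2ko mice. These ranges only just failed to overlap, and the log2 fold change was -0.64 ± 0.11 (SE; edgeR adjusted p = 0.0047). Tspan5 and Frmd8 were called without any 1 mouse and in every alternative fit of all genes; neither reached the 2-fold cutoff.

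Set against its enzyme within a mouse, Tspan5 was 0.0385 ± 0.00682 (SD, n = 7) and 0.0233 ± 0.00377 times (SD, n = 6) the level of Adam10. Frmd8 was 0.239 ± 0.0177 (SD, n = 7) and 0.170 ± 0.0191 times (SD, n = 6) that of Adam17. Neither ratio overlapped between the genotypes; both were chosen after the values were seen and were not tested. Of the other tetraspanin escorts of ADAM10, Tspan10 was not tested and the rest were not called. Tspan14, the most abundant, was at 137 ± 10.8 and 131 ± 10.05 nRPKM (SD). Tspan33 was at 11.54 to 16.5 nRPKM in PS2APP;Trem2wt mice and at 5.88 to 11.53 in PS2APP;Trem2ko mice, which just failed to overlap, with a log2 fold change of -0.49 ± 0.14 (SE; edgeR adjusted p = 0.092). The iRhom genes were not called either, with Rhbdf1 at 6.37 ± 0.896 and 5.72 ± 0.697 and Rhbdf2 at 7.19 ± 1.59 and 7.07 ± 0.549 nRPKM (SD). Timp2, a metalloprotease inhibitor, at 298 ± 45.9 and 263 ± 22.1 nRPKM (SD), and Adam15, at 73.5 ± 6.39 and 71.4 ± 1.62 nRPKM (SD), completed the 3 most abundant genes of the list.

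**Figure D3:**
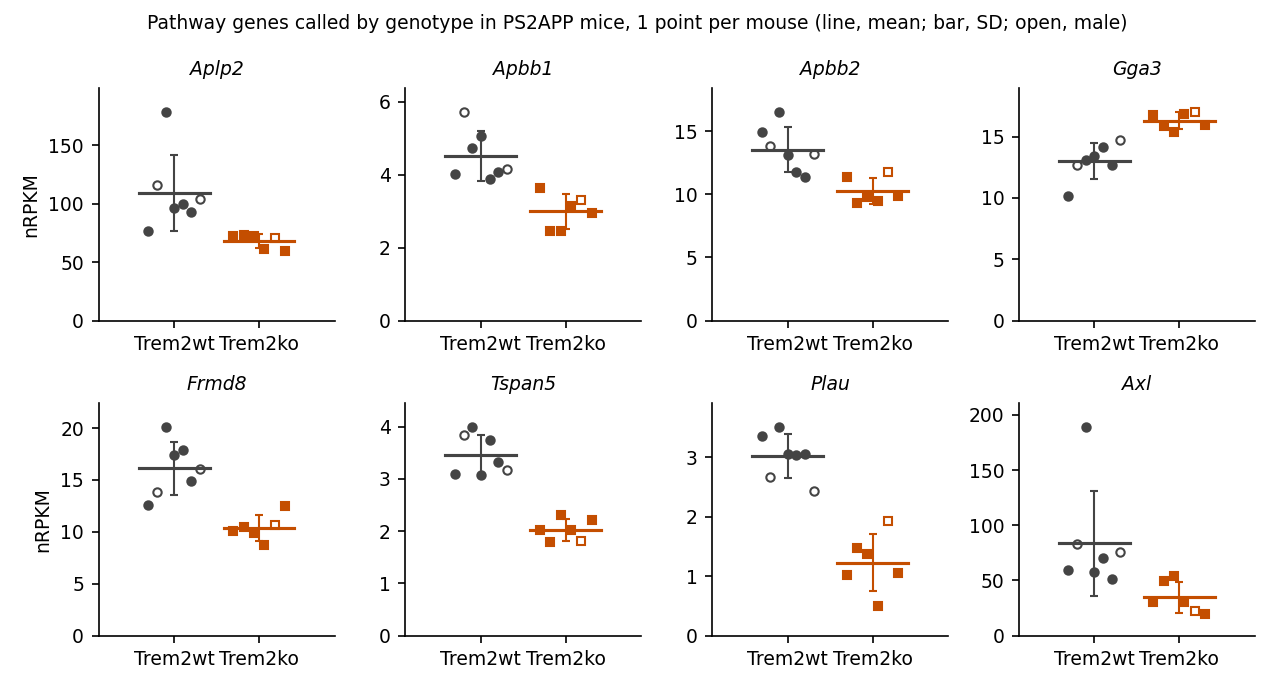
nRPKM (linear axes from 0) of the 8 called pathway genes in each PS2APP;Trem2wt mouse (grey circles) and PS2APP;Trem2ko mouse (orange squares), with open symbols for males, a line at the mean and a bar for the SD. Tspan5 and Plau separate the genotypes clearly, Apbb2 and Axl overlap, and 1 PS2APP;Trem2wt mouse stands far above the others for Aplp2 (178 nRPKM) and Axl (189 nRPKM).

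Of 19 matched genes for amyloid-degrading proteases, 17 were tested, 1 fell and none rose, with a median log2 fold change of -0.16. Plau, the urokinase-type plasminogen activator, was at 2.43, 3.05 and 3.50 nRPKM (lowest, median and highest) in PS2APP;Trem2wt mice and at 0.505, 1.21 and 1.92 in PS2APP;Trem2ko mice. The ranges did not overlap, and the log2 fold change of -1.29 ± 0.23 (SE; edgeR adjusted p = 0.0063) was past 2-fold. Plg, the plasminogen that urokinase activates, was at most at 3 counts in any mouse. The abundant proteases were not called: the lysosomal cathepsin genes Ctsd, at 8724 ± 1223 and 7595 ± 1014 nRPKM (SD), and Ctsb, at 1360.5 ± 246 and 1347 ± 179 nRPKM (SD), lay far above Ide, and the urokinase receptor gene Plaur was at 40.1 ± 7.99 and 33.3 ± 6.68 nRPKM (SD).

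Among 17 membrane proteins that these enzymes shed or cleave, all tested, 2 fell and none rose. One is Trem2 itself, the deleted gene, and the median log2 fold change of the others was -0.21. The other was Axl, a TAM receptor tyrosine kinase shed by ADAM10 and ADAM17, at 51.3, 70.6 and 189 nRPKM in PS2APP;Trem2wt mice and at 20.1, 30.9 and 54.1 in PS2APP;Trem2ko mice. The ranges overlapped, and the log2 fold change was -1.28 ± 0.31 (SE; edgeR adjusted p = 0.047). Axl was called in 4 of 13 fits that left out a mouse, and lost without PS2APP;Trem2wt replicate 2, 3, 4, 5 or 7 or PS2APP;Trem2ko replicate 1, 4, 5 or 6; without PS2APP;Trem2wt replicate 3, its highest mouse, the log2 fold change was -0.94. With females only it was -1.20 (edgeR adjusted p = 0.150; 0.0267 to 0.150 over all alternatives), also not called. The most abundant substrates besides Trem2 were Csf1r, the receptor that keeps microglia alive, at 2001 ± 308 and 1773 ± 154 nRPKM (SD), and Sirpa, the CD47 receptor, at 777 ± 127 and 722 ± 109 nRPKM (SD), neither of them called.

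**Figure D4:**
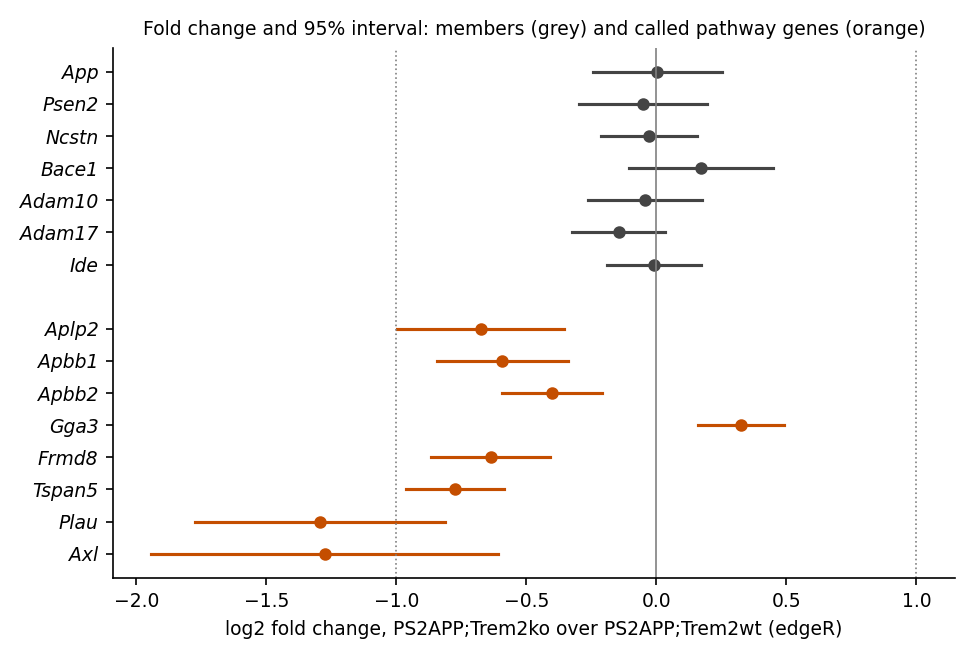
log2 fold change, PS2APP;Trem2ko over PS2APP;Trem2wt, with its 95% interval, for the 7 tested members (grey) and the 8 called pathway genes (orange); dotted lines mark 2-fold. Every member interval includes 0 and ends well short of 2-fold, the widest bounds being -0.32 for Adam17 and 0.45 for Bace1, while Plau and Axl reach beyond 2-fold.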

How the data were processed

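The authors aligned 50 bp single-end reads (SMART-seq v4 libraries) to GRCm38 with GSNAP and deposited, for each mouse, raw counts of uniquely aligned reads per gene and nRPKM, a size-factor-adjusted RPKM; the version of GSNAP and the strand setting of the counting are not given in the sources used here. Gene names and coordinates came from GENCODE M21 (52403 of 52636 genes named). Depth was 26120961 to 120569609 counts per mouse. RPKM values were used as deposited for levels, and the deposited counts for all tests, with edgeR 4.0.16 (filterByExpr, TMM, glmQLFit and glmQLFTest, no covariate; R 4.3.3), adjusted by Benjamini-Hochberg over the 17086 genes kept. The SE is the log2 fold change divided by the square root of F.

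The members and the lists were chosen with earlier results of these data known. Named genes are the members, Trem2, every list gene called, the 3 most abundant genes of each list, and the gene most correlated with each member (log2 CPM, prior count 2); other escorts, iRhoms, γ-secretase subunits, overlapping genes and Plg were named after their values were seen. The values of 1 list gene are not reported here. Apbb3 was not matched, and Nrdc is listed as Nrd1. Genotypes were also compared by DESeq2 1.42.0, by voom with limma 3.58.1, by limma on log2 nRPKM with a pseudocount of 0.1 or 1, in edgeR with RLE scaling, with no filter or a minimum of 10 counts in 6 mice, with sex added as a covariate, in females alone, with the 2-fold cutoff, and without each mouse in turn. Among 36 pairs of mice within genotypes none agreed within sampling noise (lowest chi-square per degree of freedom, 19.7). Fits were tested on simulated data. Shared reads were gauged by the 50-base windows of a gene's transcripts, on either strand, that occur in another gene's. Python 3.11.15, pandas 2.3.3 and scipy 1.17.1 were used.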

Additional observations from a re-analysis of the deposited data

Results flagged for a closer look

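In 30 groups of values (the tested members and the called pathway genes, by genotype) the highest and lowest mouse were compared with the rest by Dixon's test, and 3 stood apart; chance flags about 1 in 20 groups. Ide was lowest in PS2APP;Trem2wt replicate 1, at 9.05 nRPKM, with the next mouse at 10.69. Aplp2 was highest in PS2APP;Trem2wt replicate 3, at 177.8 nRPKM, with the next mouse at 116.0. Axl was highest in the same mouse, at 188.6 nRPKM, with the next at 83.24; no cause was tested for any of these.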

How the results depend on the processing

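The count of members called was 0 by genotype and by sex under every alternative run. The count of pathway genes called, 8, became 13 with DESeq2, 4 with females only, 2 with the 2-fold cutoff and 4 to 7 when 1 mouse was left out; it was within 1.5 times of 8 under the other alternatives. The females-only and left-out fits also had fewer mice, and the cause of these changes was not tested. Of the members, Bace1 and Adam17 kept their direction throughout. Leaving out single mice gave log2 fold changes of 0.091 to 0.26 for Bace1 and -0.20 to -0.11 for Adam17. With females only, Bace1 was at 0.30 ± 0.13 (SE; edgeR adjusted p = 0.321). The lowest adjusted p over the alternatives was 0.304 for Bace1 and 0.140 for Adam17. The intervals within 1.5-fold given above are those of the edgeR fit of all 13 mice with no covariate. The log2 fold change of App changed sign with sex as a covariate (-0.017) and with females only (-0.050), and that of Ide with females only (0.0060). Leaving out single mice gave -0.049 to 0.072 for App, -0.11 to 0.043 for Psen2, -0.079 to 0.029 for Ncstn, -0.12 to 0.0090 for Adam10 and -0.049 to 0.045 for Ide, all around 0 and none called. Bace2 and Mme had too few counts to be tested in any fit with a filter on low counts. No paired analysis was possible because the labels do not say which mice form pairs, although the study's methods state that mice of both genotypes were generally processed in pairs; replicate numbers here only name mice, and the effect of this pairing was not tested.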
